A study of Rattus norvegicus with 19 samples.

Results

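Cytosolic ribosomal proteins build the ribosomes of the cytoplasm, and their mRNAs were followed here as 1 group in rat liver. Members were chosen by name alone. A probe counted when its gene name in the scanner files, or the current symbol behind its accession or synonym, was Rpl or Rps with a number, Rpsa, Rplp0, Rplp1 or Rplp2, and mitochondrial ribosomal proteins and S6 kinases were left out. The rule found 118 of 41012 non-control probes, which stand for 82 of 15451 named genes, 48 of the large and 34 of the small subunit. All but 1 gene passed the filter on dim probes: Rps12l4 was well above background on 1 of 19 arrays, so 81 genes were tested, 48 of the large and 33 of the small subunit.

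All animals were male Wistar rats that began their diet at 8 weeks of age and ate it for 4 months, were housed singly and were killed in the fed state. The 7 control rats ate a low fat diet with 70% of its energy from carbohydrate, 10% from fat and 20% from protein. The 6 high protein rats had 45% of energy from carbohydrate, 10% from fat and 45% from protein, mainly casein. The 6 high fat rats had 20% from carbohydrate, 60% from fat and 20% from protein. Whole liver RNA of each rat was labelled with Cy5 and set on its array against a pool of Cy3-labelled liver RNA, so each value below is a log2 ratio of 1 rat to the pool, and 0 is the level of the pool. Fat and carbohydrate, or protein and carbohydrate, changed together in each diet. In RNA of a whole tissue, fewer cells of a type and less RNA per cell cannot be told apart. Of 12 hepatocyte markers, 12 were well above background in every rat.

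A ribosome joins a small subunit, which reads the mRNA, to a large subunit, which forms the peptide bond. Each subunit is a scaffold of ribosomal RNA with ribosomal proteins bound to it, and these proteins are made in matched amounts, carried to the nucleolus and built in there. The mRNAs of most ribosomal proteins begin with a C and a run of pyrimidines, the terminal oligopyrimidine tract, through which the kinase complex mTORC1 sets their translation when amino acids and insulin are present. Such control acts on translation and need not appear in mRNA levels.

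The start of a gene shows whether its annotated transcript begins with such a tract. RefSeq promoter entries on GRCr8 matched 66 of the 82 symbols, with 67 entries because Rps27a has 2. The 30 bases around the annotated start are printed for some of the genes to which the results below refer, mostly genes with a tract. The printed genes thus do not show how common a tract is. The bases are 15 before the start and 15 from it on, read 5′ to 3′ on the gene's strand. Capitals mark a tract, which here is a C at the first transcribed base followed by C or T without a break for a total of 5 or more bases; only the gene's own strand was read.
Rpl14, chr8:129163605-129163634, plus strand: gggcgggccctctccCTTCTCgctgagcgc
Rpl28, chr1:78083518-78083547, minus strand: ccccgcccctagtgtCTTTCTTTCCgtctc
Rpl37a, chr9:81748076-81748105, plus strand: gcatgcccgttgcgtCTCTTCCTCTTCggg
Rplp0, chr12:46718376-46718405, minus strand: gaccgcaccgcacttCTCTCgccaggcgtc
Rplp1, chr8:71290858-71290887, minus strand: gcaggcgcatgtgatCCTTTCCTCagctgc
Rps18, chr20:4933730-4933759, plus strand: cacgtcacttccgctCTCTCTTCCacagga
Rps26, chr7:1643390-1643419, minus strand: gagagccgccgggtcCTCTTTCgagtcttg
Rps3a, chr2:173827028-173827057, minus strand: gagttgtacttccgcCCTTTTggctctcag
Rpl3l, chr10:14258431-14258460, plus strand: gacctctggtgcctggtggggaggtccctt
Rpl7l1, chr9:21695703-21695732, plus strand: agctgcagatgcattgtgggaagcctttaa
Rps6, chr5:106420526-106420555, minus strand: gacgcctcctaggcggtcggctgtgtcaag

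A tract stood exactly at the annotated start in 23 of the 67 member entries (34.3%), against 2.63% of all 33469 promoter entries. It was found in 16 of 39 large subunit entries and in 7 of 28 small subunit entries. When the tract could begin up to 5 bases to either side of the start, 53.7% of the member entries and 17.0% of all entries held one. Annotated starts can be off by a few bases, and an entry without a tract says only that these letters are not at this place. Rpl3l, the muscle relative of Rpl3, and Rpl7l1, a relative of Rpl7 known from the assembly of the large subunit, had none under either reading, and neither did Rps6.

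One array stood apart from the rest, that of control 6. Its log ratios over all features had an SD of 0.45, against 0.20 to 0.29 on the other 18 arrays. The 48 large subunit genes had a median of 0.80 in control 6 and between -0.09 and 0.06 in each of the other 18 rats. The 33 small subunit genes had a median of 0.90 in control 6 and between -0.17 and 0.07 elsewhere. Results below that rest on the control group are therefore given with and without this rat.

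**Figure D1:**
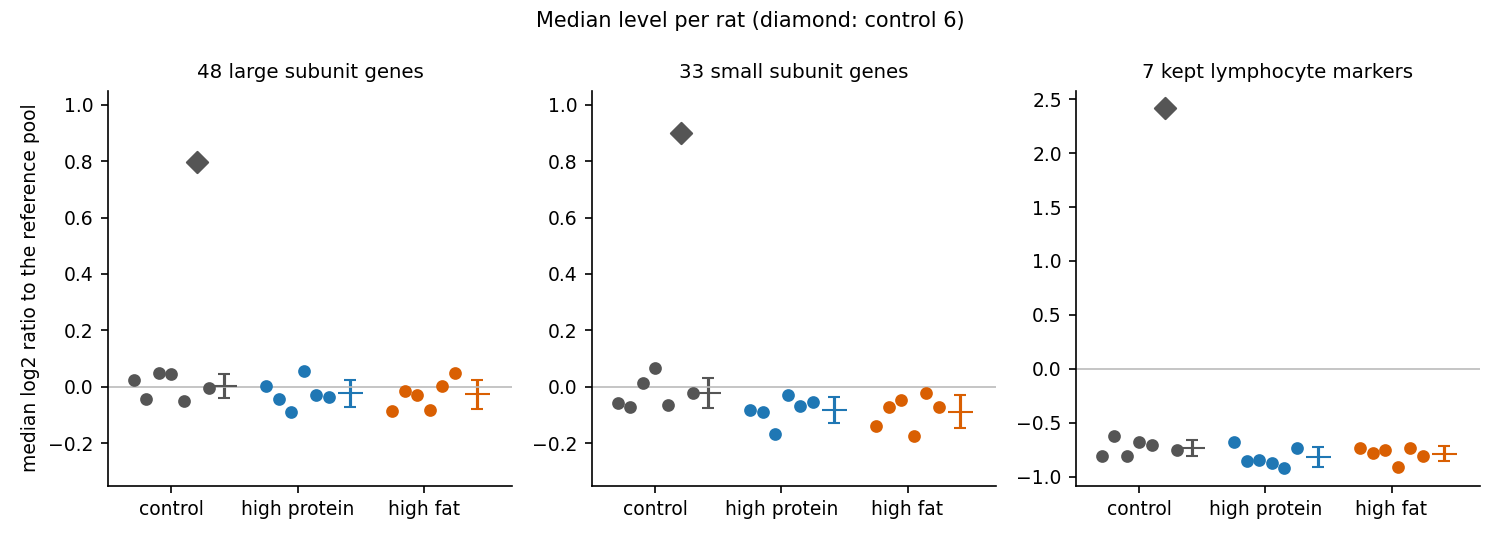
Median log2 ratio to the pool per rat for 48 large subunit genes, 33 small subunit genes and 7 lymphocyte markers, with 1 point per rat by diet and control 6 as a diamond; bars show mean and SD of each group without control 6. Control 6 lies at 0.80, 0.90 and 2.41, and the other 18 rats overlap across the diets.

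Among the other 18 rats the groups overlapped. For the large subunit, the medians of the 6 other control rats ran from -0.05 to 0.05 (median 0.01), those of the high protein rats from -0.09 to 0.06 (median -0.03) and those of the high fat rats from -0.09 to 0.05 (median -0.02). For the small subunit they ran from -0.07 to 0.07 in these controls (median -0.04), from -0.17 to -0.03 in high protein (median -0.07) and from -0.17 to -0.02 in high fat (median -0.07). A member varied little between these rats, with a median SD of 0.10 over the 18, against 0.13 for the other features.

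Control 6 was the highest of the 19 rats for 78 of 81 members, all 33 of the small subunit and 45 of 48 of the large subunit; the same was true of 22.3% of all features. It exceeded the mean of the other 18 rats by more than 0.5 in 74 of 81 members, against 12.7% of all features. The median excess was 0.85 for the large and 0.98 for the small subunit, while the features outside the group had a median of -0.0041 and the 450 non-members among the 500 brightest features one of -0.03. This is a single rat, so these differences have no replicate and no test. Over all members the median excess was 0.95 here, 0.97 with the scanner's processed signals, 0.81 with median centring, 0.78 with normexp on every spot, 0.54 with Cy5 alone and 0.50 in the deposited series matrix, alternatives chosen after seeing the data.

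The members differed in how far they stood up in control 6. In the large subunit the highest excess was 1.96 for Rpl3l, followed by 1.82 for the brighter and 1.22 for the dimmer probe of Rpl13 and by 1.31 for Rpl5, which with Rpl11 carries 5S ribosomal RNA and binds the p53 regulator Mdm2. Rpl11 itself had an excess of 1.00. The stalk proteins that recruit elongation factors to the large subunit had an excess of 0.56 (Rplp0), 1.07 (Rplp1) and 1.00 (Rplp2). In the small subunit Rps23, at the decoding centre, led with 1.44, and Rps6, the substrate of the S6 kinases, followed with 1.38. Rps3, at the entry of the mRNA channel, had 1.14, Rps19, a gene mutated in Diamond-Blackfan anaemia, 0.95, and Rpsa, also known as the laminin receptor precursor, 0.79. Rpl13 and Rps23 lie outside the rule for named genes and were chosen after their values were seen.

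Few members had a small excess. The 3 genes that were not highest in control 6 were Rpl37a (excess 0.06), Rpl37 (0.12) and Rpl7l1 (0.19), and the lowest in the small subunit was Rps26 (0.38). The probes of Rpl37a, Rpl3l, Rpl37 and Rpl7l1 were the 4 members with a mean log2 brightness under 10 (6.35, 6.74, 7.44 and 9.22, against a median of 14.7 over the 81), and Rpl37a was well above background on 18 of 19 arrays. The offset of 50 in the background correction pulls log ratios of dim probes toward 0, so the low values of Rpl37a, Rpl37 and Rpl7l1 are not shown to be lower levels, and the order at both ends of the group is uncertain. Copies differed in how they compared with their partners. Rpl15l2 had 0.67 beside 0.67 for Rpl15, and Rps12l5 had 0.95 beside 0.97 for Rps12. Rpl37l1 had 0.81 beside 0.12 for Rpl37, Rpl37al2 had 0.97 beside 0.06 for Rpl37a, Rpl3l had 1.96 beside 0.84 for Rpl3 and Rpl7l1 had 0.19 beside 0.96 for Rpl7, each with a dim probe on 1 side. Rpl36al1 had 0.35 and Rpl34l1 1.16. The array's own label for the Rpl37l1 probe is Rpl37, and for both Rpl36al1 probes it is Rpl36a. Their copy names come from the accessions alone. The 0.81 of Rpl37l1 and the 0.12 of Rpl37 are thus from probes with the same array label. Many ribosomal protein genes have processed copies that are nearly identical, so a probe named for a copy may read the parent gene too, and these members are uncertain as separate genes.

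**Figure D2:**
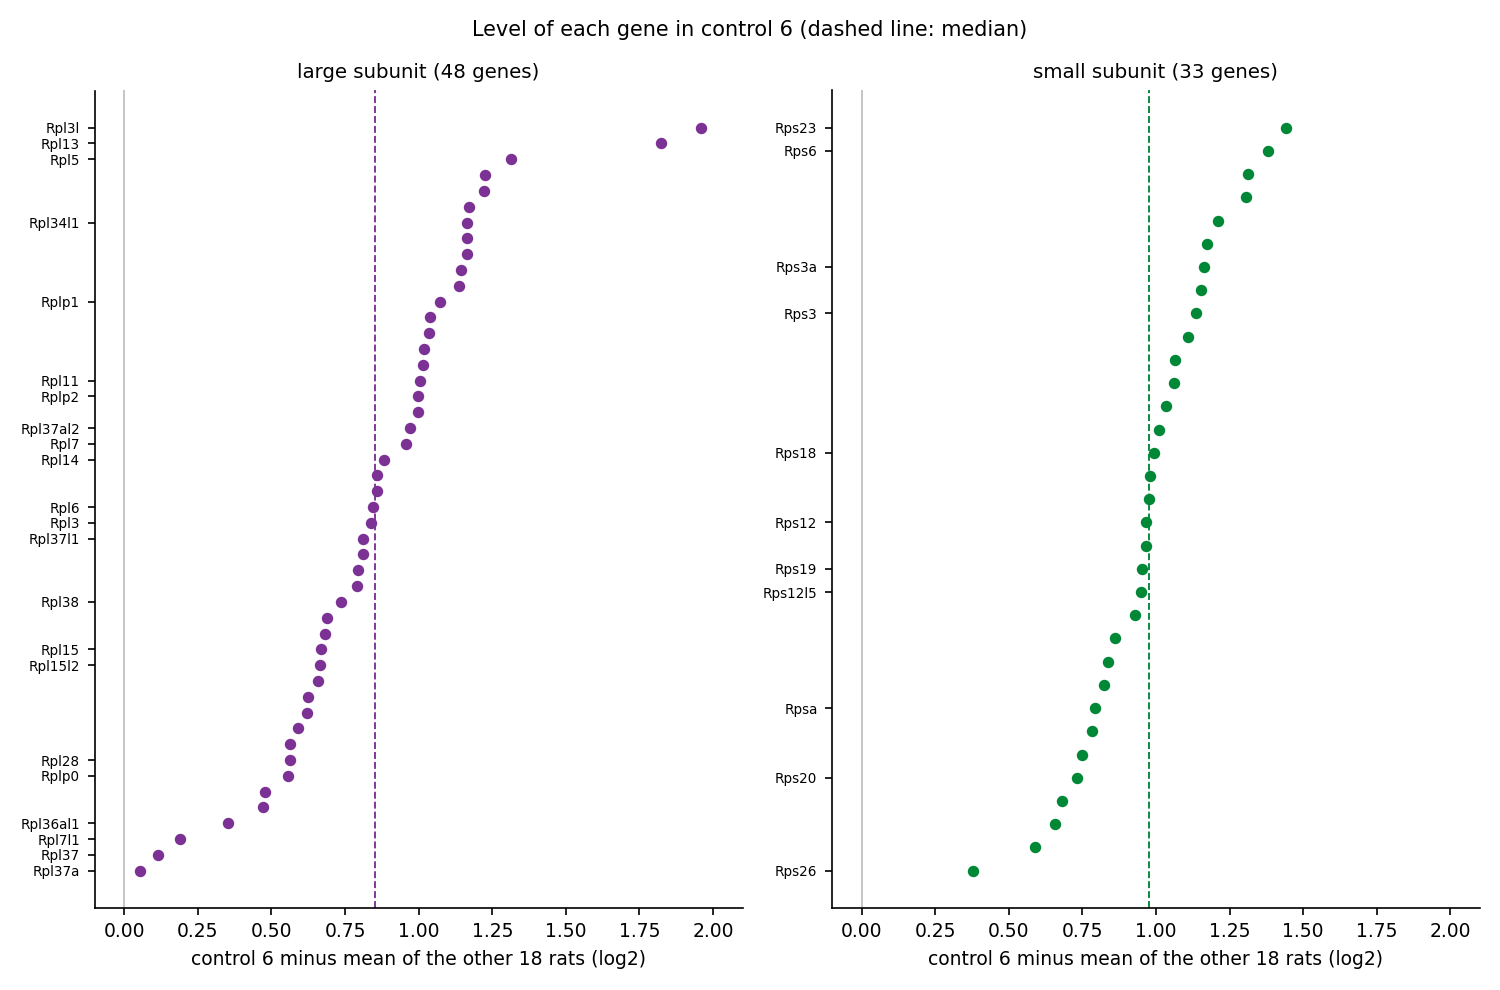
Log2 ratio in control 6 minus the mean of the other 18 rats, with 1 point per gene sorted by size, for the large and the small subunit, with names only on genes given one by one; the dashed lines are the medians (0.85 and 0.98). Rpl3l and Rpl13 lie highest, and the dim probes of Rpl37a, Rpl37 and Rpl7l1 lowest.

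Members with and without a tract at the annotated start overlapped in their excess. The median excess was 0.88 in the 23 members with a tract (0.06 to 1.30) and 0.94 in the 42 members with an entry and no tract (0.19 to 1.96).

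Markers of lymphocytes moved with the members in this rat. Of 18 lymphocyte markers, 15 were well above background in control 6 and 5 to 9 in the others, and the 7 that passed the filter had a median of 2.41 in control 6 against -0.92 to -0.63 in the other 18 rats. Cd3g, a chain of the T cell receptor complex, was at 3.61 in control 6 and between -2.96 and -2.21 elsewhere. The 4 measured markers of proliferating cells had a median of 0.57 against -0.11 to 0.19. Markers of hepatocytes (0.26 against 0.08 to 0.33), of Kupffer cells (-0.32 against -0.39 to 0.21), of endothelial cells (-0.08 against -0.18 to 0.12) and of cholangiocytes (0.14 against -0.35 to 0.31) lay within the range of the other rats. The part of these markers in the level of the ribosomal proteins was not tested.

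Other lists of the translation machinery were read in control 6 in the same way. The 19 other mRNAs known to carry a pyrimidine tract, such as those of elongation factors, had a median of 0.61 (others -0.20 to 0.05). The 63 measured ribosome biogenesis genes had 0.20 (others -0.11 to 0.14) and the 32 initiation factors 0.18 (others -0.13 to 0.11). The 63 mitochondrial ribosomal proteins, which serve the ribosomes of mitochondria, had -0.16, the lowest of the 19 rats (others -0.06 to 0.09).

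Between high protein and control livers no member passed the test: 0 of 81 were called by limma at an adjusted p under 0.05, against 0.414% of all 22221 features. Without control 6 it was again 0 of 81, against 0.194%. At an unadjusted p under 0.05, 0 members were higher and 9 lower (11.1%), against 6.73% and 7.53% of all features. Without control 6 it was 1 and 9, against 6.35% and 7.27%. The median difference was -0.15 for the large and -0.17 for the small subunit with all rats, and -0.03 for each without control 6, while the median of all features was -0.0099 and -0.0008. With all rats 78 of 81 differences were below 0, against 53.7% of all features, and without control 6 59 of 81 were, against 50.4%. The smallest adjusted p was 0.200, for Rpl28, and without control 6 it was 0.193, for Rps3a.

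High fat and control livers gave the same count, 0 of 81 members against 3.64% of all features, and 0 of 81 against 4.10% without control 6. At an unadjusted p under 0.05, 0 members were higher and 10 lower (12.3%), against 7.96% and 7.81% of all features. Without control 6 it was 0 and 9, against 8.15% and 7.8%. The medians were -0.16 for the large and -0.18 for the small subunit, and -0.05 for each without control 6, beside -0.0086 and 0.0022 for all features. With all rats 80 of 81 differences were below 0, against 53.2% of all features, and without control 6 68 of 81 were, against 49.1%. These comparisons share the 7 control rats, so control 6 enters both. Within the slides that hold both diets, the high protein over control difference of the large subunit median was -0.01 on slide 1, -0.01 on slide 4 and -0.90 on slide 5, where control 6 is the only control. The high fat over control difference of that median was -0.10 on slide 1, -0.05 on slide 2 and -0.08 on slide 3. For the small subunit median it was -0.10, -0.05 and -0.10. None of these 3 slides holds control 6, and each holds 1 to 3 rats of a diet.

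**Figure D3:**
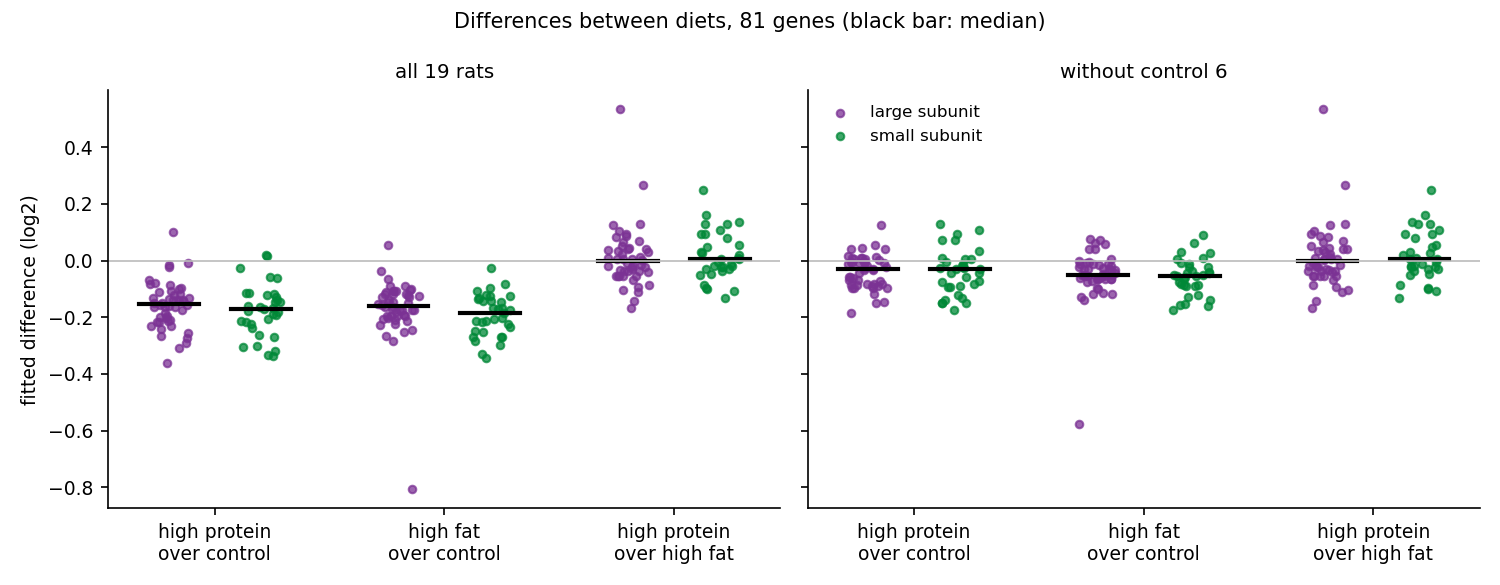
Fitted log2 differences of the 81 genes in the 3 comparisons, with 1 point per gene, by subunit, with all 19 rats (left) and without control 6 (right); black bars are medians. The medians of the comparisons with control lie between -0.18 and -0.15 on the left and between -0.05 and -0.03 on the right, and the lone low points (-0.81 and -0.58) and high points (0.53) are Rpl13.

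Rps20, a protein of the head of the small subunit, came nearest in the high fat comparison. Its level was 0.07 to 0.25 in the 6 other controls (median 0.13), 0.82 in control 6, 0.03 to 0.20 in high protein (median 0.13) and -0.06 to 0.05 in high fat (median -0.0041). On this brighter probe of Rps20 all high fat rats lay below all control rats. It was the only member whose groups did not overlap here, and high fat lay wholly below control in 1.15% of all features (1.58% without control 6). On the dimmer probe of Rps20 the groups overlapped, with control 5 (-0.15) below every high fat rat. That probe gave a difference of -0.18 (adjusted p = 0.312, limma over all probes), and -0.11 without control 6. On the brighter probe the high fat over control difference was -0.25 ± 0.09 (SE, adjusted p = 0.156, limma). Without control 6 it was -0.15 ± 0.04 (adjusted p = 0.0563), so it did not pass either way.

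Between high protein and high fat livers 1 of 81 members was called, against 7.02% of all features. The medians were -0.0023 for the large and 0.0051 for the small subunit, beside -0.0033 for all features, and 40 of 81 differences were below 0, against 51.2% of all features. The sign of these medians depended on the processing. They were 0.096 and 0.11 with median centring, beside 0.0112 for all features. In the deposited series matrix they were 0.077 and 0.082, beside 0.0307. With slide as a fixed block they were -0.12 and -0.14, beside -0.0145. Unadjusted, 2 members were higher and 0 lower at p under 0.05, against 9.6% and 10.4% of all features; without control 6 it was 7 and 2, against 10.8% and 12.5%. Control 6 is in neither group, but its spread enters the error of the main fit. Without it the count was again 1, against 9.86%. With slide as a fixed block, control 6 also enters the difference itself, as the only control beside high protein rats on slide 5. On slide 1, the only one with both diets, the medians differed by 0.08 (large) and 0.09 (small subunit), over 2 rats against 1.

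The called gene was Rpl7l1, listed in the scanner files under an older name, with its probe at chr9:9398853-9400850 on rn4. It lay between -0.07 and 0.11 in the 6 high protein rats (median -0.02), between -0.37 and -0.08 in the 6 high fat rats (median -0.29), and between -0.32 and 0.05 in the 7 control rats (median -0.06). Every high protein rat was above every high fat rat, and the controls overlapped both; the groups were separate in this direction in 2.75% of all features. The high protein over high fat difference was 0.27 ± 0.06 (SE; adjusted p = 0.0121, limma), and 0.27 ± 0.06 without control 6 (adjusted p = 0.00675). By the F test over the 3 diets it was again the 1 member called (adjusted p = 0.0289), against 6.57% of all features (8.45% without control 6). Neither comparison with control passed: the difference was 0.10 ± 0.06 for high protein (adjusted p = 0.463; 0.13 and 0.347 without control 6) and -0.16 ± 0.06 for high fat (adjusted p = 0.157; -0.14 and 0.234 without control 6). Its dimmer probe gave 0.18 for high protein over high fat (adjusted p = 0.0555, limma over all probes).

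The call on Rpl7l1 depended on the treatment of the slides and the normalisation. With slide as a block the difference was 0.15 (adjusted p = 0.449), and on slide 1, the only one with both diets, it was 0.03 over 2 rats against 1. It was 0.29 (adjusted p = 0.0552) with median centring in place of loess and 0.14 (adjusted p = 0.443) with Cy5 alone. The F test call was lost without high protein 2, 3 or 6 or high fat 2, 3, 4 or 6, each in turn.

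**Figure D4:**
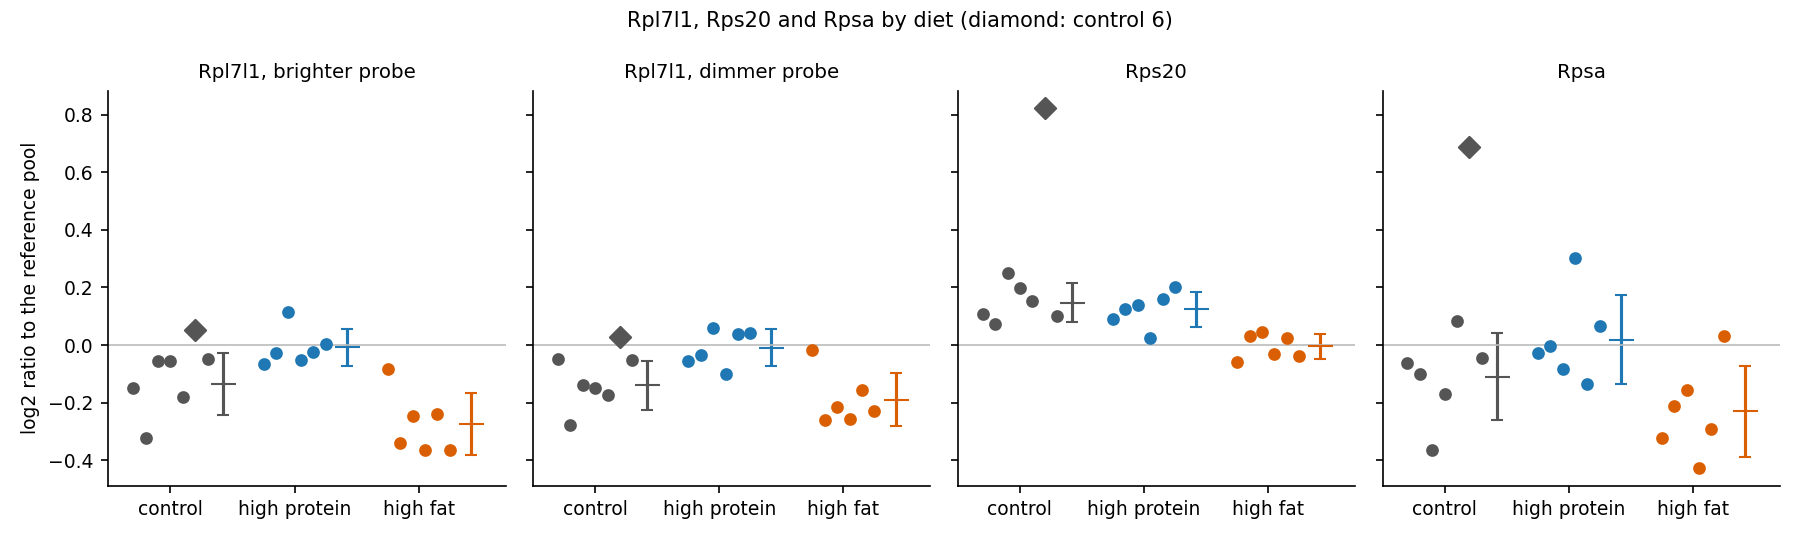
Log2 ratio to the pool per rat for the 2 probes of Rpl7l1, for Rps20 and for Rpsa, by diet, with control 6 as a diamond and bars for mean and SD without control 6. The brighter Rpl7l1 probe runs from -0.07 to 0.11 in high protein rats and from -0.37 to -0.08 in high fat rats. The brighter probe of Rps20, the one shown, lies lowest in high fat rats.

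The next members in this comparison did not pass. Rpsa was -0.14 to 0.30 in high protein livers (median -0.02) and -0.43 to 0.03 in high fat livers (median -0.25), which overlap, with a difference of 0.25 ± 0.13 (SE; adjusted p = 0.296, limma; 0.0721 without control 6). Rps26, at the exit of the mRNA channel, was -0.01 to 0.20 and -0.13 to 0.03, with a difference of 0.16 (adjusted p = 0.194; 0.0649 without control 6). Rps20 differed by 0.13 (adjusted p = 0.502; 0.0695 without control 6).

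Other members chosen by the smallest F test p had smaller differences once control 6 was left out. In the large subunit, Rpl28 lay between 0.01 and 0.10 in the controls other than control 6, between -0.24 and 0.01 in high protein and between -0.13 and 0.17 in high fat. Its high protein over control difference was -0.22 with all rats and -0.15 without control 6 (adjusted p = 0.200 and 0.222). For Rpl14 the high fat over control difference went from -0.24 to -0.13, for Rpl6 the high protein over control difference from -0.23 to -0.12, and for Rpl38 the high fat over control difference from -0.21 to -0.12 when control 6 was left out. In the small subunit, the high fat over control difference went from -0.27 to -0.14 for Rps18, from -0.28 to -0.13 for Rps3a and from -0.34 to -0.16 for Rps6. None of these passed in either fit.

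The remaining genes of the rule gave no call either. For Rplp0, Rplp1 and Rplp2 the high protein over high fat differences were 0.10, 0.13 and -0.05, and for Rpl3, at the peptidyl transferase centre, 0.08. For Rpl5 it was -0.17 and for Rpl11 0.05, where the sign for Rpl11 changed with slide as a fixed block (-0.10). Rps3 gave 0.02 and Rps19 -0.10. Over the copies and their partners, the high protein over high fat differences other than those of Rpl7l1 and Rpl3 lay between -0.09 and 0.07. For Rpl34l1 the fit had no value for high fat 4, whose spot was dropped.

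The precision of these comparisons differed with control 6. The median SE of a member was 0.12 with all rats for either comparison with control and 0.06 without control 6. The 95% interval lay within 0.5 of 0 for 61 of 81 members in high protein over control, 63 in high fat over control and 76 in high protein over high fat; without control 6 it did so for 80 of 81 members in each. The exception in all 3 comparisons without control 6 was Rpl13, chosen after its values were seen. The intervals are per gene and not adjusted over features, so they do not set the size that a call needs. Rpl7l1 was called at 0.27 in high protein over high fat. Small changes could have been missed at this number of arrays.

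Rpl13 had the least even values of the group. Its brighter probe was at 0.13 to 0.47 in 11 rats (4 control, 4 high protein, 3 high fat), at -0.78 to -0.57 in 6 rats (2 of each diet), at -3.03 in high fat 4 and at 1.61 in control 6. Its other probe lay between -0.39 and -0.04 in the 18 rats, and at 1.01 in control 6. The 2 probes gave high fat over control differences of -0.81 and -0.25, neither called (adjusted p = 0.424 and 0.464, limma over all probes). Without control 6 these differences were -0.58 and -0.080. Of the 25 members with more than 1 kept probe, Rpl13 had the widest gap between probes in high fat over control (0.56), where the median gap was 0.04.

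**Figure D5:**
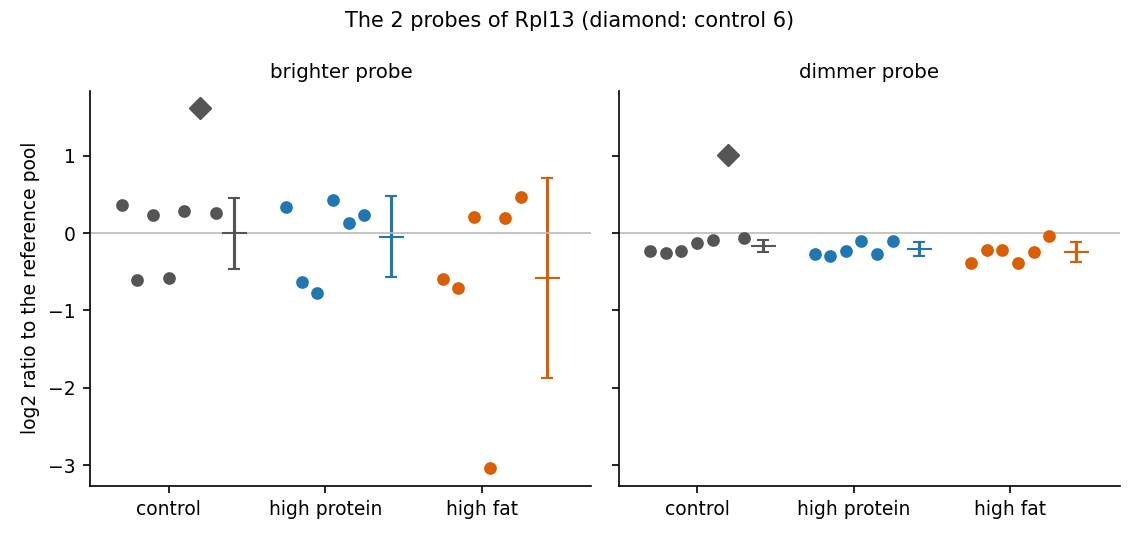
Log2 ratio to the pool per rat for the brighter (left) and the dimmer (right) probe of Rpl13, by diet, with control 6 as a diamond and bars for mean and SD without control 6. The brighter probe falls into separate levels within each diet and reaches -3.03 in high fat 4, and the dimmer probe stays between -0.39 and -0.04 in the 18 rats other than control 6.

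Genes that act on or beside the ribosome gave a few calls, in lists read by counts alone. No gene of the ribosome biogenesis, initiation factor, elongation or mitochondrial ribosome lists was called in high protein over control. In high protein over high fat, 3 of 63 mitochondrial ribosomal proteins were higher and 0 lower, led by Mrpl38 (0.37, adjusted p = 0.00289, limma). Among biogenesis genes 3 of 63 were higher, led by Bop1 of the large subunit pathway (0.36, adjusted p = 0.00546), and among initiation factors 3 of 32, led by Eif2b1 (0.32, adjusted p = 0.000273). Of all features 3.62% were higher and 3.4% lower in this comparison. Slide 1 alone held both of these diets, so slide and diet cannot be fully told apart in this comparison. With slide as a fixed block 343 features were called in it, against 1559 without the block. The lists were read without that block. Eef2k, the kinase that inhibits elongation factor 2, was higher in high fat than in control livers (0.68, adjusted p = 0.00179; 0.71 and 0.00124 without control 6) and lower in high protein than in high fat livers (-0.69, adjusted p = 0.00156). Among 26 measured genes of the mTORC1 and S6 kinase list, Eif4ebp2, a translation repressor, was higher in high fat over control (0.29, limma adjusted p = 0.0145). Rps6ka1 was lower there (-0.50, adjusted p = 0.0205), and both were still called without control 6 (0.29 and -0.38). In high protein over high fat 3 were higher and 1 lower. Eif4ebp2 was lower (-0.38, adjusted p = 0.00197). Those higher were Tsc2 (0.24, adjusted p = 0.0180), Sesn2, an mTORC1 inhibitor (0.38, adjusted p = 0.0208), and Depdc5 (0.21, adjusted p = 0.0299). Of 17 cytosolic tRNA synthetases, which load tRNAs with amino acids, 3 were higher, led by Sars1 (0.47, adjusted p = 0.000269), and in high fat over control 3 were lower, led by Tars1 (-0.37, adjusted p = 0.0154; -0.39 and 0.0130 without control 6), where 1.84% of all features were higher and 1.8% lower. Sars1 at -0.26 in that comparison was no longer called without control 6 (adjusted p = 0.0549). Leaving out control 6 moved the calls in high protein over high fat from 4 to 8 of 26 in the mTORC1 and S6 kinase list, from 3 to 6 of 17 in the tRNA synthetases, from 3 to 5 of 63 in biogenesis and from 3 to 4 of 63 in the mitochondrial ribosomal proteins, while those of all features went from 7.02% to 9.86%. In high fat over control the mTORC1 and S6 kinase list went from 2 to 3 calls and the initiation factors from 0 to 1.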

How the data were processed

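Liver RNA of 19 rats was measured on 2-colour Agilent 4x44K arrays read with Feature Extraction 10.5.1.1, per the file headers; the scanner files hold the deposited mean and background intensities of each spot. The log2 values of the deposited series matrix, whose processing is not given in the sources used here, served as an alternative. Each array was corrected with normexp (offset 50) on the mean minus background signal, without 40 spots on 5 arrays where the background exceeded the signal by over 50, and normalised by loess with limma 3.58.1 in R 4.3.3. Spots flagged in either channel as uneven or as outliers among repeat spots were also set to missing. Of the 22221 features, 230 had a missing value. A probe was kept when its Cy5 signal was well above background on at least 6 arrays, and the brightest kept probe stood for a gene. One limma fit covered 3 diets and 22221 features, with Benjamini-Hochberg adjustment over all of them and a threshold of 0.05. The scripts were tested on simulated data with independent noise, which held no outlying array and no slide effect. Groups come from the labels, and the rats are taken as separate animals. Like-numbered rats of different diets deviated with a mean correlation of -0.0106 over 18 pairs, against 0.0013 over 102 other pairs. The main fit did not pair them, and such a mean cannot exclude a pairing.

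The members and the gene lists were chosen with earlier results of these data known. Genes named are the 5 with the smallest F test p in each subunit, the stalk and other textbook members, and the copies with their partners, of which some are not reported here; others are said to be chosen after their values were seen. Alternatives were other background, normalisation, filter and probe rules, slide and replicate blocks, and leaving out each rat. The number of arrays limits the precision.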

Additional observations from a re-analysis of the deposited data

Results flagged for a closer look

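A rat is given here when its gap to the nearest rat of its diet was large for the range of that group by Dixon's criterion, which chance meets in about 1 of 20 groups; 105 groups were looked at and 33 values met it. Control 6 accounts for 28 of them. These 28 share 1 array, and the medians are taken over the same group of genes, so they are not separate events. The medians of control 6 were 0.80 for the large subunit, 0.90 for the small subunit and 0.88 for all members. In the large subunit its log2 ratios were 0.56 for Rpl28, 0.94 for Rpl14, 0.85 for Rpl6, 0.64 for Rpl38, 0.79 for Rpl3, 1.42 for Rpl5, 0.96 for Rpl7, 0.87 for Rpl11, 0.68 for Rpl15, 1.04 for Rplp1 and 1.01 for Rplp2. In the small subunit they were 0.90 for Rps3, 1.01 for Rps3a, 1.50 for Rps6, 0.90 for Rps12, 0.98 for Rps18, 0.89 for Rps19, 0.82 for Rps20 and 0.69 for Rpsa. Among relatives and copies they were 1.69 for Rpl3l, 0.70 for Rpl15l2, 1.08 for Rpl34l1, 0.88 for Rpl37al2, 0.81 for Rpl37l1 and 0.84 for Rps12l5.

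The other 5 values were single genes in single rats. High protein 4 stood apart from its group for Rpl11 (-0.047), Rpl15 (0.27) and Rpl15l2 (0.23), high fat 6 for Rpl36al1 (0.10) and high fat 4 for the brighter probe of Rpl13 (-3.03).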

How the results depend on the processing

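No member was called in high protein or high fat over control under any setting tried, and Rpl7l1 was the only member whose calls changed. With the series matrix the high protein over control medians were -0.028 (large) and -0.048 (small subunit), beside 0.053 for all features. The high protein over high fat medians were 0.077 and 0.082, beside 0.0307 for all features. Median centring gave -0.075 and -0.11, then 0.096 and 0.11, with 31 features called in high protein over control, and 0 members called in high protein over high fat and 0 by the F test. Cy5 alone gave small subunit medians of -0.10 and 0.085, 47 features, and again 0 and 0 members. With normexp on every spot the large subunit median was -0.088 in high protein over control and 55 features were called; with processed signals 52 were. The mean of kept probes left 0 members by the F test. With slide as a fixed block the medians were -0.24 and -0.27 in high protein over control (20 features) and -0.11 and -0.12 in high fat over control (443). In high protein over high fat they were -0.12 and -0.14 (343, 0 members), and the F test called 502 features and 0 members. Control 6 enters each of these comparisons, as the only control on slide 5. With the replicate block 162 features were called in high protein over control and 0 members by the F test; 5 of 19 rats correlated best with their own number. Leaving out each rat in turn gave 17 to 373 features in high protein over control, the most without control 7 and the fewest without high protein 6, and 0 to 1 members by the F test. The high protein over control medians then ran from -0.18 to -0.030 (large) and -0.21 to -0.030 (small), and the high fat over control medians from -0.19 to -0.050 and -0.22 to -0.054, each nearest 0 without control 6. The causes were not tested, and the number of arrays and the spread of control 6 limit the comparisons with control.

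Of 3066 values of named members under an alternative, 121 changed sign, all uncalled before and after; they follow as log2 differences. With normexp on every spot the values were in high protein over high fat Rps3a 0.026, Rpl36al1 0.028, Rpl3l 0.047 and Rps12 0.0026. With processed signals the values were in high protein over control Rpl37 0.014. The same setting gave in high protein over high fat Rpl36al1 0.011 and Rps12l5 0.016. With the series matrix the values were in high protein over control Rpl38 0.011, Rps20 0.028, Rplp0 0.037, Rplp1 0.017, Rps3 0.064, Rpl36al1 0.067 and Rpl37l1 0.030. The same setting gave in high protein over high fat Rpl6 0.018, Rps3a 0.056, Rplp2 0.040, Rpl15l2 0.018, Rpl34l1 0.058, Rpl36al1 0.084, Rpl3l 0.070, Rps12l5 0.031, Rpl15 0.023 and Rps12 0.058. With median centring the values were in high protein over control Rps3 2.0e-04. The same setting gave in high protein over high fat Rpl28 0.0010, Rpl6 0.044, Rps3a 0.096, Rplp2 0.049, Rpl15l2 0.037, Rpl34l1 0.036, Rpl36al1 0.093, Rps12l5 0.051, Rpl15 0.029, Rpl37a -1.0e-04 and Rps12 0.068. With Cy5 alone the values were in high protein over control Rpl38 0.0041, Rps20 0.051, Rps26 -0.090, Rplp0 0.030 and Rpl37 0.0036. The same setting gave in high fat over control Rps3 0.078 and Rpl37a 0.0066. The same setting gave in high protein over high fat Rpl14 -0.015, Rps3a 0.059, Rps6 -0.064, Rps3 -0.18, Rps12l5 0.042 and Rpl37a -0.040. With slide as a fixed block the values were in high protein over control Rps26 -0.033, Rpsa -0.11, Rpl37a 0.022 and Rpl37 0.035. The same setting gave in high protein over high fat Rpl14 -0.041, Rpl38 -0.015, Rps18 -0.20, Rps6 -0.26, Rplp0 -0.054, Rpl3 -0.13, Rpl11 -0.10, Rps3 -0.17, Rpl36al1 0.027, Rpl37al2 -0.059, Rpl37l1 -0.18, Rpl37 0.028, Rpl7 -0.17 and Rpl13 -0.0064. With slide as a random block the values were in high protein over high fat Rps18 -0.0047, Rps6 -0.0038 and Rpl37l1 -0.0026. With the replicate block the values were in high protein over control Rplp0 0.0006 and Rpl37 0.0036. Leaving out each rat gave, in high protein over control, Rpsa -0.047 to 0.13, Rpl37 -0.058 to 0.016, Rps26 -0.012 to 0.071, Rpl37a -0.041 to 0.020, Rplp0 -0.077 to 0.056, Rplp1 -0.20 to 0.012, Rplp2 -0.18 to 0.0040, Rpl3 -0.16 to 0.018, Rps3 -0.14 to 0.11 and Rpl37al2 -0.17 to 0.0041. Leaving out each rat gave, in high fat over control, Rplp2 -0.12 to 0.057, Rps3 -0.16 to 0.089 and Rps19 -0.17 to 0.0053. Leaving out each rat gave, in high protein over high fat, Rpl3l -0.043 to 0.024, Rps6 -0.0040 to 0.040, Rps12l5 -0.057 to 0.020, Rps3a -0.037 to 0.0056, Rpl37l1 -0.0076 to 0.023, Rpl7 -0.011 to 0.041, Rps12 -0.065 to 1.0e-04, Rps18 -0.020 to 0.028, Rps3 -0.020 to 0.046 and Rpl36al1 -0.032 to 0.0038.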
